A study of Saccharomyces cerevisiae with 48 samples.

Results

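The mRNA of budding yeast cells of 75 fl, the size at which cells reach the end of the cycle, was set against that of cells of 40 fl, the size at which they are born. All counted genes entered the comparison, and its members were 6 of the 48 libraries of the series, 3 per size (replicates A, B and C). Every library came from the diploid laboratory strain BY4743, unmodified for the experiment and grown at 30 °C in rich glucose medium (YPD). Newborn, unbudded cells were separated by size in a centrifuge (elutriation), returned to growth and collected when the whole fraction had reached the chosen volume. Fractions collected at 1 size were pooled until enough cells were at hand, so each library averages several cultures. The labels call the 3 pools of a size independent. No share of budded or dividing cells per library was used here, so cells are described by their volume and their transcripts, and more cells of a cycle stage cannot be told apart from more RNA per cell.

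In a budding yeast cycle, groups of genes are switched on in turn. Genes for DNA synthesis and for the G1 cyclins follow the factors SBF and MBF, histone genes are expressed in S phase, the CLB2 cluster follows in G2 and mitosis, and the genes by which daughters separate and enter G1 are then switched on. Cells must grow before they commit to division, and the production of ribosomes is known as a major expense of that growth.

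The 75 fl libraries held 1483084, 3137447 and 1417816 counted reads in replicates A, B and C, and the 40 fl libraries 5294862, 248840 and 515450. The counted set holds 3301 genes, none of which had fewer than 10 reads in any of the mRNA libraries. The 40 fl library of replicate B is the shallowest of the 24 mRNA libraries and held the lowest count of 3145 of the genes, so it largely decided which genes were counted. In it 10 reads stand for 42.5 CPM (counts scaled between libraries to a common total, as edgeR does with its TMM factors) and the median gene had 28 reads, with a counting error of 18.9% of its value. Genes expressed at low levels at 40 fl are therefore missing from the counts, and shares of gene groups below are over the counted members. Low values of 40 fl replicate B below, such as the 42.5 CPM of SPO12 and MDH1, rest on about 10 reads. Log2 levels correlated at 0.88 to 0.951 among the 75 fl libraries, at 0.861 to 0.917 among the 40 fl libraries and at 0.745 to 0.847 between the sizes (Pearson's r over genes, given as a description). The mRNA libraries thus sat with others of their labelled size. The ribosome footprint libraries of replicate A did not, and the footprint results at the end are given with and without them.

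Between 75 and 40 fl, 412 of the 3301 genes passed the test, 222 of them higher at 75 fl (6.73% of the genes tested) and 190 lower (5.76%), together 12.5%. The other 2889 did not pass, and 979 genes had an unadjusted p under 0.05. The shares of 6.73% and 5.76% are those to set beside the counts of every gene group below. The test was edgeR's quasi-likelihood test with Benjamini-Hochberg adjustment over all counted genes, at an adjusted p under 0.05. Changes are log2 fold changes of 75 fl over 40 fl. Libraries were scaled to a common total, so higher and lower mean relative to the other counted mRNA. No measure of mRNA per cell was used, so a lower gene need not have fewer transcripts per cell. Of the genes called, 401 differed by more than 2-fold, and 24 in each direction by more than 4-fold. The median change over all counted genes was 0.05. In 401 of the 412 the 3 libraries of one size lay entirely above those of the other, which 32.8% of all counted genes also did. The count depends on single libraries: it was 124 without 75 fl replicate A, 269 without 75 fl replicate C, 244 without 40 fl replicate B and 123 without 40 fl replicate C, and 98 genes (55 higher, 43 lower) were called in all 6 fits that left out 1 library.

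**Figure D1:**
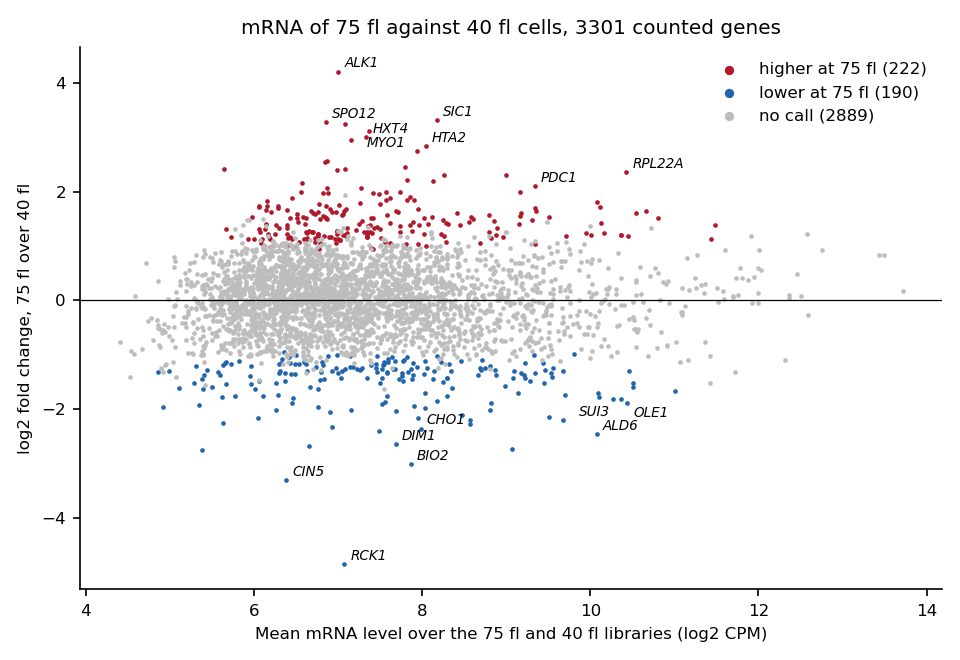
Each point is a counted gene, with its mean level over the 75 fl and 40 fl libraries on the horizontal axis (log2 CPM) and its log2 fold change of 75 fl over 40 fl on the vertical axis; red points were higher at 75 fl (222), blue points lower (190) and grey points not called (2889). ALK1 stands highest, at 4.20, and RCK1 lowest, at -4.85, and calls of both directions occur across the range of levels.

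Genes of mitosis and of the exit from it held the largest rises at 75 fl. ALK1, which encodes a haspin-like kinase of mitosis, had 631, 511 and 437 CPM at 75 fl, against 17.9, 46.8 and 33.5 CPM at 40 fl. In the shallow library of 40 fl replicate B that level is 11 reads, against 1667 reads in 75 fl replicate B. This was the largest rise among the genes called (log2 fold change 4.20, SE 0.42, edgeR adjusted p = 0.000397). SPO12, a regulator of the release of the phosphatase Cdc14 at mitotic exit, had 272, 353 and 429 CPM at 75 fl, against 28.9, 42.5 and 42.8 CPM at 40 fl. SPO12 changed by 3.28 log2 (SE 0.35, edgeR adjusted p = 0.000397). HSL1, a kinase of the bud neck that helps to remove the mitotic inhibitor Swe1, stood at 549, 255 and 458 CPM at 75 fl, against 32.6, 46.8 and 59.6 CPM at 40 fl. HSL1 changed by 3.24 log2 (SE 0.40, edgeR adjusted p = 0.000556). The 75 fl libraries lay far above the 40 fl libraries in each of these genes, with no overlap. MYO1, the myosin of the cytokinetic ring, had 809, 547 and 544 CPM at 75 fl, against 78.5, 128 and 85.6 CPM at 40 fl. MYO1 changed by 2.75 log2 (SE 0.35, edgeR adjusted p = 0.000663). Genes of other kinds stood between HSL1 and MYO1, among them ILM1, HXT4, WSC4 and HTA2 at 3.11, 3.00, 2.94 and 2.83. SRC1, an inner nuclear membrane protein, was higher as well (log2 fold change 1.45, SE 0.31, edgeR adjusted p = 0.012, and 0.061 and 0.0673 without 75 fl replicate A and 40 fl replicate C in turn). Of 32 genes listed for the CLB2 cluster 11 were counted, of which 4 (ALK1, SPO12, MYO1 and SRC1) were higher and none lower, with a median of 1.19. Of the 11, 10 had a change above 0, and the lowest stood at -0.78. The alternative test DESeq2 called 6 of them higher and 1 lower. MOB1, which binds the mitotic exit kinases, and BUD3 did not pass at 1.47 and 1.19 (edgeR adjusted p = 0.0563 and 0.0544).

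The genes by which mother and daughter part were high at 75 fl. SIC1, which holds back the mitotic and S phase cyclin kinases as cells leave mitosis, had 756, 889.9 and 1083 CPM at 75 fl, against 66.6, 119 and 96.8 CPM at 40 fl. SIC1 changed by 3.32 log2 (SE 0.37, edgeR adjusted p = 0.000397). CTS1, the chitinase that digests the septum, had 285, 595 and 689 CPM at 75 fl, against 89.0, 68.1 and 181 CPM at 40 fl. CTS1 changed by 2.20 log2 (SE 0.43, edgeR adjusted p = 0.00797). CHS1, the chitin synthase that repairs the wall after separation, stood at 248, 281 and 171 CPM at 75 fl, against 83.2, 93.6 and 57.7 CPM at 40 fl. CHS1 changed by 1.59 log2 (SE 0.33, edgeR adjusted p = 0.00956, and 0.0599 without 40 fl replicate C). All 3 counted members of the daughter separation list were higher at 75 fl, of 22 listed, and their median change was 2.20; in CTS1 the 75 fl library of replicate A was below the 2 others and nearest to the 40 fl range.

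The other 19 listed separation genes were outside the counted set. The authors' deposited table of pooled mRNA gives them 1 value per size, on a log2 scale centred on each gene, without replicates. There 16 of the 19 were higher at 75 fl by more than 1. Their median difference of 75 fl over 40 fl was 2.92, against 0.19 over all 3137 uncounted ORFs. In the authors' deposited table the wall protein gene PIR1 stood at 1.78 at 75 fl and -3.39 at 40 fl, and EGT2, a wall glucanase-like protein of early G1, at 1.69 and -3.48. AMN1, which helps to shut off mitotic exit in daughters, stood at 1.28 and -2.40 in the authors' deposited table, and ASH1, a repressor that acts in daughter nuclei, at 1.63 and -1.68. Of the 21 uncounted genes of the CLB2 cluster 19 were higher at 75 fl by more than 1 in that table, among them the cyclin gene CLB1 (0.77 at 75 fl and -5.95 at 40 fl), the polo kinase gene CDC5 (1.02 and -2.52) and KIN3, a NIMA-related kinase (1.47 and -3.49 in the authors' deposited table). In the authors' deposited table, uncounted ORFs higher at 75 fl by more than 2 log2 numbered 162 of 3137 (5.16%), against 37 of 3301 counted genes (1.12%). Lower by more than 2 log2 were 43 uncounted ORFs (1.37%) and 36 counted genes (1.09%). The pooled values are log ratios without counts, so the depth behind them is unknown. No share of all uncounted ORFs at the cut of 1 was taken, so the 16 of 19 and 19 of 21 have no matching background. Genes low at 40 fl were the likelier to be left uncounted, so the uncounted set was in part chosen by a low 40 fl level.

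**Figure D2:**
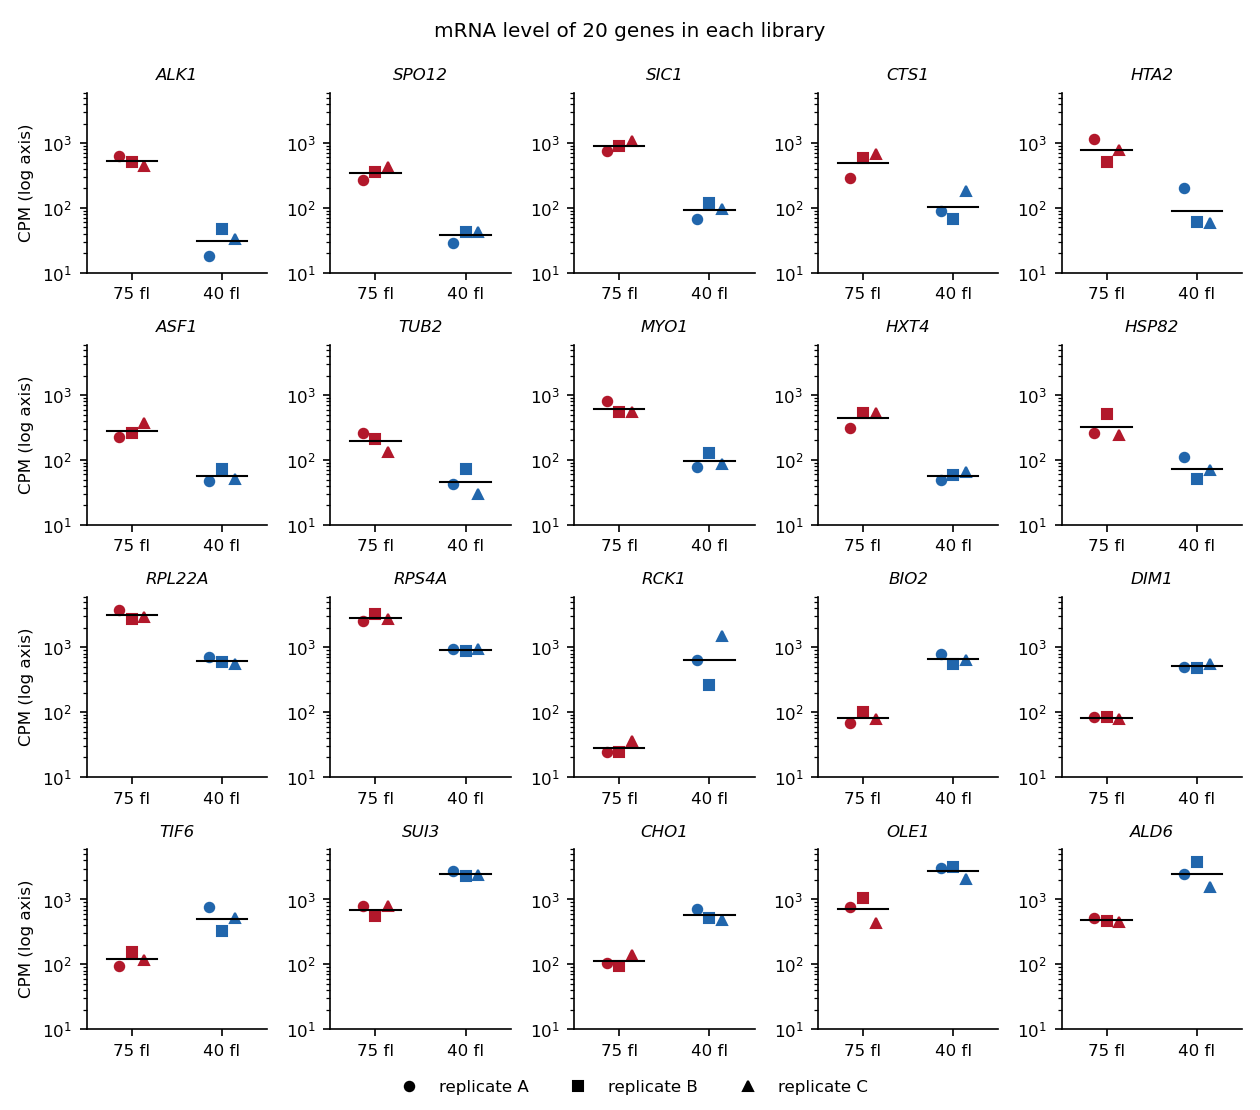
The mRNA level of 20 genes is shown in every library of 75 fl (left, red) and 40 fl (right, blue) in CPM on a log axis; circles, squares and triangles are replicates A, B and C and bars are geometric means of 3 libraries. In the first 12 panels all 3 libraries of 75 fl lie above those of 40 fl, and in the last 8, from RCK1 on, all 3 lie below them.

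Most counted S phase genes were higher at 75 fl than at 40 fl. All 7 counted histone genes, of 10 listed core, linker and variant genes, were higher, with a median change of 2.20. HTA2, which encodes histone H2A, had 1140.0, 515 and 781 CPM at 75 fl, against 203, 59.6 and 57.7 CPM at 40 fl. HTA2 changed by 2.83 log2 (SE 0.50, edgeR adjusted p = 0.00503). HHF2, which encodes H4, had 744, 389 and 461 CPM at 75 fl, against 106, 93.6 and 89.3 CPM at 40 fl. HHF2 changed by 2.45 log2 (SE 0.35, edgeR adjusted p = 0.00149). In both the 75 fl library of replicate A was the highest of all. The H2A gene HTA1 was the most abundant of the 7 in CPM, with 2349.7, 1550.4 and 2498 CPM at 75 fl, against 892, 362 and 551 CPM at 40 fl, and its call depended on single libraries (log2 fold change 1.81, SE 0.39, edgeR adjusted p = 0.0127, and 0.0578, 0.0574 and 0.0659 without 75 fl replicate A, 40 fl replicate B and 40 fl replicate C in turn). Of 42 listed genes of the G1/S group 12 were counted, 8 of which were higher and none lower, with a median of 1.32. ASF1, a chaperone that hands histones to new chromatin, had 228, 265 and 369 CPM at 75 fl, against 48.2, 72.3 and 50.3 CPM at 40 fl. ASF1 changed by 2.39 log2 (SE 0.34, edgeR adjusted p = 0.00138). Also higher were SMC3, a subunit of the cohesin ring (log2 fold change 1.55, SE 0.33, edgeR adjusted p = 0.0126, and 0.0634 and 0.0635 without 75 fl replicate A and 40 fl replicate C in turn), and with it SMC1, PRI2, RAD27, RFA3 and MSH6, whose changes ran from 1.22 to 1.68. The S phase cyclin gene CLB5 did not pass, with 89.6, 72.3 and 117 CPM at 75 fl, against 49.6, 89.3 and 72.6 CPM at 40 fl and overlapping groups (log2 fold change 0.46, SE 0.34, edgeR adjusted p = 0.394). The G1/S genes called higher numbered 2, 4, 4 and 2 without 75 fl replicate A, 75 fl replicate C, 40 fl replicate B and 40 fl replicate C in turn. Copies of histone genes are nearly identical, and the sources used here do not say how shared reads were assigned, so single copies are uncertain.

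Among the genes that prepare origins of replication for the next S phase, 1 of 10 counted members was higher, of 16 listed. Over all counted genes 6.73% were higher. ORC1, the largest subunit of the origin recognition complex, had 274, 200.2 and 184 CPM at 75 fl, against 62.5, 85.1 and 70.7 CPM at 40 fl. ORC1 changed by 1.63 log2 (SE 0.31, edgeR adjusted p = 0.00704). The 5 counted subunits of the MCM helicase, MCM2 to MCM6, stood between 0.31 (MCM3) and 0.52 (MCM4) and did not pass, and ORC5 was at -0.79 without passing (edgeR adjusted p = 0.103). In the authors' deposited table CDC6, the loader of that helicase, was at 0.91 at 75 fl and -0.98 at 40 fl, and MCM7 at 0.96 and -0.19.

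Spindle genes were higher at 75 fl in 6 of 12 counted cases, of 34 listed, and all 12 had a change above 0, with a median of 1.14. TUB2, the beta-tubulin gene, had 256, 214 and 133 CPM at 75 fl, against 42.4, 72.3 and 29.8 CPM at 40 fl (log2 fold change 2.15, SE 0.39, edgeR adjusted p = 0.0052), and the alpha-tubulin gene TUB3 had 228, 193 and 148 CPM at 75 fl, against 53.6, 51.1 and 37.2 CPM at 40 fl. TUB3 changed by 1.99 log2 (SE 0.32, edgeR adjusted p = 0.003). SPC110, which ties microtubules to the inner face of the spindle pole body, had 564, 280.5 and 341 CPM at 75 fl, against 120.2, 68.1 and 123 CPM at 40 fl. SPC110 changed by 1.89 log2 (SE 0.36, edgeR adjusted p = 0.00712). The kinesin gene KAR3 was also higher (log2 fold change 1.59, SE 0.34, edgeR adjusted p = 0.0114, and 0.0603 without 75 fl replicate A), as were the kinetochore gene MIF2 and the midzone gene ASE1, at 1.54 and 1.31. MIF2 lost its call in 5 of the 6 fits that left out 1 library (edgeR adjusted p 0.0519 to 0.118) and ASE1 in 4 (edgeR adjusted p 0.0581 to 0.0949). Of the polarity and cytokinesis genes 5 of 27 counted were higher, of 35 listed, with a median of 0.82. The septin gene CDC10 had 201, 211 and 165 CPM at 75 fl, against 62.9, 46.8 and 72.6 CPM at 40 fl. CDC10 changed by 1.63 log2 (SE 0.30, edgeR adjusted p = 0.00666). BNR1, a formin that builds actin cables from the bud neck, had 351, 211 and 294 CPM at 75 fl, against 56.2, 115 and 89.3 CPM at 40 fl. BNR1 changed by 1.78 log2 (SE 0.35, edgeR adjusted p = 0.00808). CDC11 (1.47), TPM2 (1.72) and ABP1 (1.73), a septin and 2 actin-binding proteins, were the other 3. The polarity and cytokinesis genes called higher numbered 3 and 2 without 75 fl replicate A and 40 fl replicate C in turn. Actin itself, ACT1, did not pass at 1.26 (edgeR adjusted p = 0.0753).

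**Figure D3:**
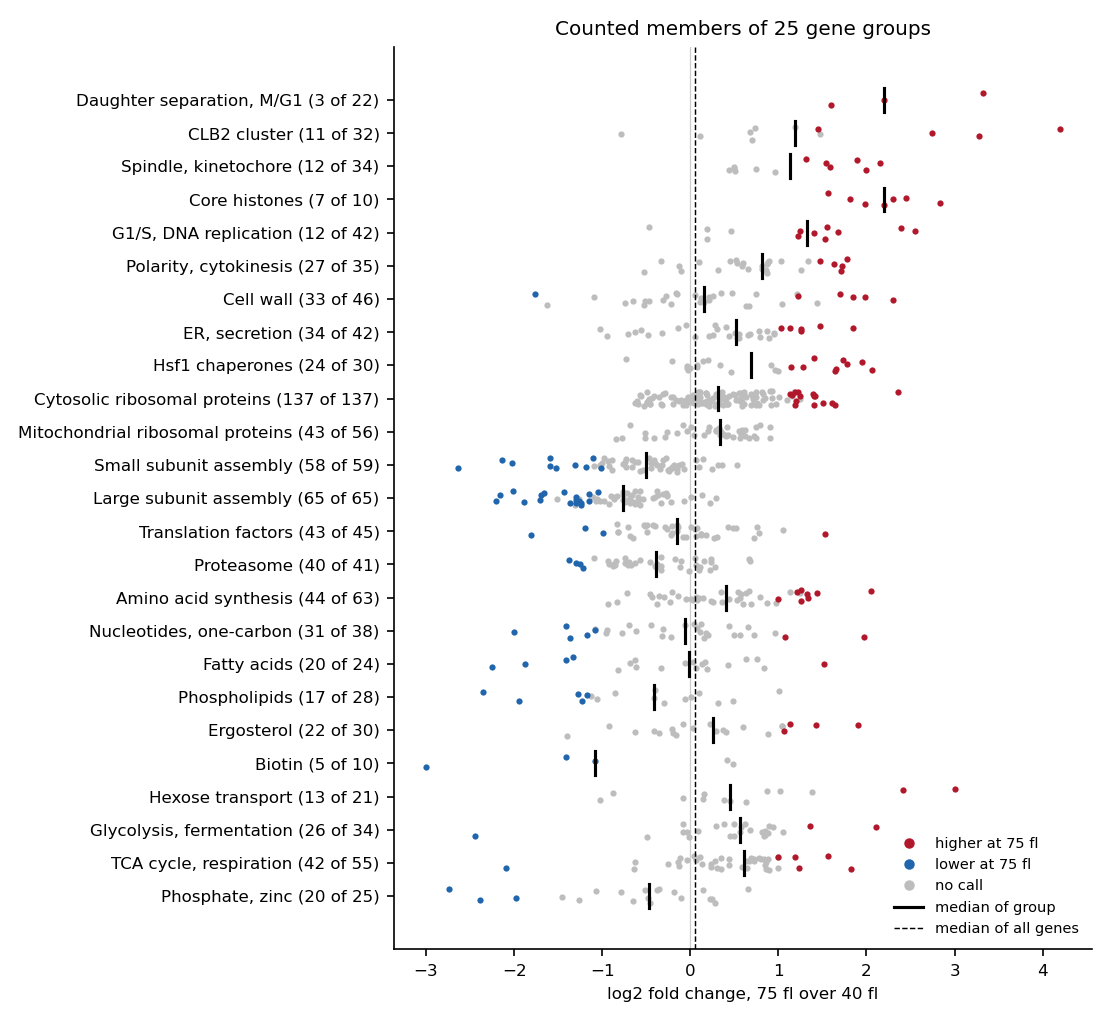
Each point is a counted member of 1 of 25 gene groups, placed by its log2 fold change of 75 fl over 40 fl and coloured by call; thick bars are group medians, the dashed line is the median of all counted genes (0.05), and brackets give counted and listed members. Cell cycle groups sit to the right and the 2 groups of ribosome assembly genes to the left. Ribosomal protein genes lie on both sides of the dashed line with calls to the right only. The row of core histones also lists linker and variant histone genes.

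Among genes that assemble ribosomes all calls were lower at 75 fl, and among genes for the cytosolic ribosome's own proteins all were higher, but most members of either did not pass. Over all counted genes 5.76% were lower. Of 58 counted genes of small subunit assembly 10 were lower and none higher (59 listed, median -0.51), and of 65 counted genes of large subunit assembly 18 were lower and none higher (65 listed, median -0.76). DIM1, which methylates ribosomal RNA, had 83.4, 85.2 and 77.5 CPM at 75 fl, against 493, 481 and 555 CPM at 40 fl. DIM1 changed by -2.63 log2 (SE 0.30, edgeR adjusted p = 0.000411). KRR1 and UTP8, components of the complex that processes the small subunit, had 348, 276 and 474 CPM at 75 fl, against 2500.1, 999.9 and 1312 CPM at 40 fl (log2 fold change -2.14, SE 0.41, edgeR adjusted p = 0.00703) and 92.3, 95.0 and 121 CPM at 75 fl, against 491, 332 and 424 CPM at 40 fl. UTP8 changed by -2.03 log2 (SE 0.31, edgeR adjusted p = 0.00199). In all 3 genes the 40 fl libraries lay entirely above the 75 fl libraries. TIF6, which keeps the large subunit from joining too early, had 95.7, 154 and 115 CPM at 75 fl, against 779, 328 and 512 CPM at 40 fl. TIF6 changed by -2.16 log2 (SE 0.37, edgeR adjusted p = 0.00457). TMA16 had 242, 178 and 254 CPM at 75 fl, against 812, 999.9 and 903 CPM at 40 fl. TMA16 changed by -2.01 log2 (SE 0.32, edgeR adjusted p = 0.00269). RRP15 was at -2.20 but overlaps another ORF, YPR142C, and its value is uncertain. The small subunit genes called lower numbered 3, 5 and 4 without 75 fl replicate A, 75 fl replicate C and 40 fl replicate C in turn. The large subunit genes called lower numbered 5, 10 and 5 without 75 fl replicate A, 40 fl replicate B and 40 fl replicate C in turn.

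Of the 137 counted cytosolic ribosomal protein genes (all that were listed) 15 were higher and none lower, with a median of 0.31. Over all counted genes 222 of 3301 (6.73%) were higher. With the replicate block the counts were 6 of 137 and 160 of 3301, without 75 fl replicate A 3 and 75, and without 40 fl replicate B 4 and 113. RPL22A, a large subunit protein, had 3752, 2706 and 2950.3 CPM at 75 fl, against 698, 587 and 545 CPM at 40 fl. RPL22A changed by 2.36 log2 (SE 0.34, edgeR adjusted p = 0.00161). The small subunit pair RPS4A and RPS4B, which encode the same protein, had 2594, 3259.6 and 2719 CPM at 75 fl, against 941, 868 and 944 CPM at 40 fl (log2 fold change 1.64, SE 0.32, edgeR adjusted p = 0.00791) and 2352, 3056 and 2407 CPM at 75 fl, against 869, 817 and 884 CPM at 40 fl. RPS4B changed by 1.60 log2 (SE 0.32, edgeR adjusted p = 0.00871). Replicates were tight in these 2 genes, which share most of their sequence and may share reads. The other 12 were RPL5, RPL6A, RPL13A, RPL13B, RPL19A, RPL19B, RPL22B, RPS0B, RPS15, RPS19A, RPS19B and RPS29B, with changes from 1.13 to 1.51. The ribosomal protein genes called higher numbered 3, 9, 24, 4 and 3 without 75 fl replicate A, 75 fl replicate C, 40 fl replicate A, 40 fl replicate B and 40 fl replicate C in turn. Without 75 fl replicate B 10 cytosolic ribosomal protein genes were higher and 1 lower. Of 43 counted mitochondrial ribosomal protein genes (56 listed) none passed in edgeR, where 4 had an unadjusted p under 0.05; DESeq2 called 1 higher and 1 lower and limma-voom none. Their median was 0.33.

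Among other genes of protein synthesis the calls were few. SUI3, a subunit of initiation factor eIF2, had 789.8, 558 and 779.8 CPM at 75 fl, against 2764, 2281 and 2403 CPM at 40 fl. SUI3 changed by -1.81 log2 (SE 0.33, edgeR adjusted p = 0.00588). The translation factor list held 3 lower genes (SUI3, CAF20, TIF35) and 1 higher (CLU1) of 43 counted and 45 listed, with a median of -0.15, and 3 of 43 is near the 5.76% over all counted genes. The translation factor genes called lower numbered 1, 1, 1 and 1 without 75 fl replicate A, 75 fl replicate B, 40 fl replicate B and 40 fl replicate C in turn. CAF20 lost its call in 4 of the 6 fits that left out 1 library (edgeR adjusted p 0.0884 to 0.152), TIF35 in 6 (edgeR adjusted p 0.0597 to 0.176) and CLU1 in 2 (edgeR adjusted p 0.0722 to 0.0766). The list of RNA polymerases I and III, which make ribosomal and transfer RNA, held 2 lower genes, RPC34 and RPA12, and 2 higher, TFC1 and BDP1, of 28 counted (32 listed, median -0.13). RPC34 and RPA12 are subunits of the enzymes, and TFC1 and BDP1 belong to the factors that position polymerase III. Both shares are near those over all counted genes. RPC34 lost its call in 4 of the 6 fits that left out 1 library (edgeR adjusted p 0.0617 to 0.107), RPA12 in 4 (edgeR adjusted p 0.067 to 0.0968), TFC1 in 2 (edgeR adjusted p 0.05 to 0.0715) and BDP1 in 5 (edgeR adjusted p 0.0671 to 0.236). Without 75 fl replicate A and without 40 fl replicate C no gene of the list was called. Of 32 counted genes of transfer RNA charging and modification (35 listed) 1 was lower, the pseudouridine synthase gene PUS7 (log2 fold change -1.45, SE 0.33, edgeR adjusted p = 0.0144, and 0.0703 and 0.0579 without 75 fl replicate A and 40 fl replicate C in turn), and the list's median was -0.06.

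The few calls among proteasome genes were all lower, and those among chaperone genes under Hsf1 all higher. Of 40 counted proteasome genes (41 listed) 4 were lower (5.76% over all counted genes) and none higher, with a median of -0.39. They were the core particle genes PRE1, PRE4 and PUP3 and BLM10, an activator that caps the core, with changes from -1.37 to -1.22. PRE1 had 196, 202 and 226 CPM at 75 fl, against 465, 621 and 447 CPM at 40 fl. PRE1 changed by -1.29 log2 (SE 0.30, edgeR adjusted p = 0.0174, and 0.0892 and 0.0513 without 75 fl replicate A and 40 fl replicate C in turn). The proteasome genes called lower numbered 0, 1 and 0 without 75 fl replicate A, 75 fl replicate C and 40 fl replicate C in turn. RPN4, the transcription factor of these genes, had 164, 264 and 149 CPM at 75 fl, against 246, 251 and 233 CPM at 40 fl, with overlapping groups (log2 fold change -0.33, SE 0.31, edgeR adjusted p = 0.514).

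Of 24 counted chaperone genes under the heat shock factor Hsf1 (30 listed) 9 were higher and none lower, with a median of 0.69. HSP82, the Hsp90 chaperone, had 259, 509 and 247 CPM at 75 fl, against 111, 51.1 and 68.9 CPM at 40 fl. HSP82 changed by 2.06 log2 (SE 0.39, edgeR adjusted p = 0.00697). HSP78 and MDJ1, chaperones of mitochondria, were higher too: HSP78 had 203, 246 and 194 CPM at 75 fl, against 71.6, 46.8 and 68.9 CPM at 40 fl. HSP78 changed by 1.73 log2 (SE 0.30, edgeR adjusted p = 0.00494). The general chaperones SSA1, SSA2, SSE2, HSC82 and HSP104 and the ER chaperone KAR2 completed the group, at 1.15 (HSC82) to 1.95 (SSA2). The chaperone genes called higher numbered 5, 4 and 3 without 75 fl replicate A, 40 fl replicate B and 40 fl replicate C in turn. Stress genes under Msn2 and Msn4 gave fewer calls: of 26 counted (39 listed) SOD2 was higher and RCK1 lower, the median was 0.22, and HSP12 had 152, 154 and 138 CPM at 75 fl, against 376, 128 and 186 CPM at 40 fl with overlapping groups (log2 fold change -0.68, SE 0.37, edgeR adjusted p = 0.238). SOD2 lost its call in 3 of the 6 fits that left out 1 library (edgeR adjusted p 0.0603 to 0.0785).

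The secretory path and the cell wall held more higher than lower genes. In the list of ER and vesicle genes 6 of 34 counted were higher and none lower (42 listed, median 0.52): PMT1, which adds mannose to secreted proteins, LHS1, STT3, ERV25, SEC27 and SEC31. PMT1 had 413, 387 and 282 CPM at 75 fl, against 107, 123 and 74.5 CPM at 40 fl. PMT1 changed by 1.84 log2 (SE 0.32, edgeR adjusted p = 0.00493). The ER and vesicle genes called higher numbered 1, 3, 2 and 1 without 75 fl replicate A, 40 fl replicate A, 40 fl replicate B and 40 fl replicate C in turn. Other fits called some of these genes lower. There were 5 higher and 1 lower without 75 fl replicate B, and 9 and 1 with DESeq2. The edgeR fit of all 24 mRNA libraries called 8 higher and 4 lower. In the cell wall list 5 of 33 counted were higher and 1 lower (46 listed, median 0.16). The cell wall genes called higher numbered 3 and 3 without 40 fl replicate B and 40 fl replicate C in turn. Without 75 fl replicate B 4 cell wall genes were higher and 3 lower, and with all 24 mRNA libraries 7 and 4. CWP2, a mannoprotein of the wall, was at 730.5 ± 265 CPM at 75 fl and 151 ± 79.6 CPM at 40 fl (SD, n = 3 each). PSA1, which makes the mannose donor of glycosylation, had 1504, 856 and 1106 CPM at 75 fl, against 261, 289 and 328 CPM at 40 fl (log2 fold change 1.98, SE 0.34, edgeR adjusted p = 0.00444), and the glucanase gene EXG1 had 379.5, 635 and 369 CPM at 75 fl, against 130.1, 153 and 104 CPM at 40 fl. EXG1 changed by 1.85 log2 (SE 0.34, edgeR adjusted p = 0.00609). KNH1, of glucan synthesis, was the lower one, with 26.7, 28.5 and 35.3 CPM at 75 fl, against 105, 63.8 and 130.3 CPM at 40 fl. KNH1 changed by -1.76 log2 (SE 0.34, edgeR adjusted p = 0.00703).

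Lipid genes were called in both directions. In phospholipid synthesis 5 of 17 counted genes were lower and none higher (28 listed, median -0.41, and -0.88 to -0.27 when 1 library was left out). The phospholipid genes called lower numbered 2, 3, 3 and 2 without 75 fl replicate A, 75 fl replicate C, 40 fl replicate B and 40 fl replicate C in turn. CHO1, the phosphatidylserine synthase, had 104, 94.4 and 141 CPM at 75 fl, against 720.1, 519 and 488 CPM at 40 fl (log2 fold change -2.35, SE 0.33, edgeR adjusted p = 0.00138), and the choline transporter gene HNM1 had 121, 152 and 107 CPM at 75 fl, against 688, 485 and 283 CPM at 40 fl. HNM1 changed by -1.94 log2 (SE 0.36, edgeR adjusted p = 0.00681). The inositol transporter gene ITR1, the CTP synthase gene URA7 and OPI1 were the other 3. OPI1, the repressor that acts on genes of this group, had 84.1, 123 and 140.5 CPM at 75 fl, against 297, 226 and 290.4 CPM at 40 fl. OPI1 changed by -1.23 log2 (SE 0.31, edgeR adjusted p = 0.0224, and 0.103 and 0.0817 without 75 fl replicate A and 40 fl replicate C in turn). In the fatty acid list 4 of 20 counted were lower and 1 higher (24 listed, median -0.01). The fatty acid genes called lower numbered 1 and 2 without 75 fl replicate A and 75 fl replicate C in turn. ACB1, which carries acyl-CoA, had 14.4, 36.8 and 16.9 CPM at 75 fl, against 94.9, 115 and 130.3 CPM at 40 fl. ACB1 changed by -2.26 log2 (SE 0.39, edgeR adjusted p = 0.00457). OLE1, the desaturase, had 765, 1064 and 433 CPM at 75 fl, against 3077, 3191 and 2044 CPM at 40 fl. OLE1 changed by -1.88 log2 (SE 0.40, edgeR adjusted p = 0.0113, and 0.0534 without 75 fl replicate A).

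ACC1, acetyl-CoA carboxylase, makes the building block of fatty acids and carries biotin. Its values were 423, 597 and 368 CPM at 75 fl, against 1268, 1396 and 1037 CPM at 40 fl. ACC1 changed by -1.41 log2 (SE 0.33, edgeR adjusted p = 0.0175, and 0.0899 and 0.0646 without 75 fl replicate A and 75 fl replicate C in turn). FAS1, a subunit of fatty acid synthase, had 334, 538 and 275 CPM at 75 fl, against 1427, 804 and 652 CPM at 40 fl. FAS1 changed by -1.33 log2 (SE 0.39, edgeR adjusted p = 0.0414, and 0.133, 0.129, 0.119, 0.0591 and 0.062 without 75 fl replicate A, 75 fl replicate C, 40 fl replicate A, 40 fl replicate B and 40 fl replicate C in turn). HFA1, the mitochondrial relative of ACC1, was higher at 1.52. HFA1 lost its call in 3 of the 6 fits that left out 1 library (edgeR adjusted p 0.0758 to 0.122). BIO2, the last enzyme of biotin synthesis, had 67.7, 101 and 79.1 CPM at 75 fl, against 781, 562 and 642 CPM at 40 fl (log2 fold change -3.00, SE 0.33, edgeR adjusted p = 0.000397), and with PYC1, another biotin enzyme, 3 of 5 counted genes of the biotin list were lower (10 listed). HFA1, higher at 1.52, was not in the biotin list, whose highest change was 0.49. The biotin genes called lower numbered 1 and 1 without 75 fl replicate A and 75 fl replicate C in turn. PYC1 lost its call in 5 of the 6 fits that left out 1 library (edgeR adjusted p 0.0543 to 0.154). Of the ergosterol genes 4 of 22 counted were higher and none lower (30 listed, median 0.26). They were ERG3, ERG9, ERG12 and ERG20. ERG9, squalene synthase, had 555, 712 and 636 CPM at 75 fl, against 293, 157 and 244 CPM at 40 fl. ERG9 changed by 1.43 log2 (SE 0.33, edgeR adjusted p = 0.0162, and 0.054, 0.0697 and 0.0695 without 75 fl replicate A, 40 fl replicate B and 40 fl replicate C in turn). The ergosterol genes called higher numbered 0, 0 and 0 without 75 fl replicate A, 40 fl replicate B and 40 fl replicate C in turn. Without 75 fl replicate B 4 ergosterol genes were higher and 1 lower, and without 40 fl replicate A 3 and 1. DESeq2 called 6 higher and 2 lower, and the edgeR fit of all 24 mRNA libraries 6 and 1. The list's median ran from -0.03 to 0.45 when 1 library was left out. No sphingolipid gene passed among 14 counted in edgeR (3 at an unadjusted p under 0.05; DESeq2 called 2 higher and 1 lower, limma-voom none). The edgeR fit of all 24 libraries and that with the replicate block called 1 sphingolipid gene lower each, and without 75 fl replicate B 1 was higher and 1 lower.

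Genes of glucose use were higher in a few steps. HXT4, a glucose transporter gene, had 313, 539 and 523 CPM at 75 fl, against 49.4, 59.6 and 65.2 CPM at 40 fl. HXT4 changed by 3.00 log2 (SE 0.35, edgeR adjusted p = 0.000472). MIG2, a repressor that acts in glucose, had 51.3, 253 and 65.2 CPM at 75 fl, against 16.3, 51.1 and 18.6 CPM at 40 fl. MIG2 changed by 2.42 log2 (SE 0.64, edgeR adjusted p = 0.0287, and 0.0507, 0.102 and 0.101 without 75 fl replicate B, 40 fl replicate A and 40 fl replicate C in turn). The 75 fl library of replicate B was far above the other 2 in MIG2. These were the 2 higher genes among 13 counted of hexose transport (21 listed); HXT1, HXT2, HXT3 and HXT7 did not pass, at 1.38, -1.02, 0.45 and -0.87. Of 26 counted genes of glycolysis and fermentation (34 listed, median 0.57) PDC1 and ADH3 were higher and ALD6 was lower, 2 of 26 being near the 6.73% over all counted genes. The glycolysis and fermentation genes called higher numbered 0 without 40 fl replicate C. The list's median ran from -0.04 to 0.82 when 1 library was left out. PDC1, pyruvate decarboxylase, had 1264, 2328 and 844 CPM at 75 fl, against 345, 540.4 and 156 CPM at 40 fl. PDC1 changed by 2.11 log2 (SE 0.49, edgeR adjusted p = 0.0162, and 0.072 without 40 fl replicate C). ALD6, which turns acetaldehyde into acetate, had 514, 461 and 455 CPM at 75 fl, against 2515, 3748 and 1556 CPM at 40 fl. ALD6 changed by -2.45 log2 (SE 0.38, edgeR adjusted p = 0.00245). In the list of the TCA cycle and respiration 5 of 42 counted were higher (MDH1, COR1, CYT1, QCR6 and IDP1) and 1 lower (55 listed, median 0.61; 6.73% of all counted genes were higher). The TCA cycle and respiration genes called higher numbered 2, 3, 2 and 1 without 75 fl replicate A, 75 fl replicate C, 40 fl replicate B and 40 fl replicate C in turn. COR1 lost its call in 1 of the 6 fits that left out 1 library (edgeR adjusted p 0.0538), CYT1 in 3 (edgeR adjusted p 0.0536 to 0.0747), QCR6 in 5 (edgeR adjusted p 0.0542 to 0.119) and IDP1 in 5 (edgeR adjusted p 0.0796 to 0.15). Of 13 counted genes of glycogen and trehalose (18 listed, median 0.35) GLG1, which primes glycogen, was higher (log2 fold change 1.22, SE 0.31, edgeR adjusted p = 0.0235, and 0.0588, 0.0687, 0.0513 and 0.0914 without 75 fl replicate A, 40 fl replicate A, 40 fl replicate B and 40 fl replicate C in turn). MDH1, mitochondrial malate dehydrogenase, had 103, 154 and 143 CPM at 75 fl, against 40.8, 42.5 and 29.8 CPM at 40 fl. MDH1 changed by 1.82 log2 (SE 0.33, edgeR adjusted p = 0.00517). The lower one, CIT2, encodes the peroxisomal citrate synthase and had 168, 249 and 122 CPM at 75 fl, against 487, 1162 and 679 CPM at 40 fl. CIT2 changed by -2.09 log2 (SE 0.40, edgeR adjusted p = 0.00712).

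Amino acid genes were higher in 8 of 44 counted cases and lower in none (63 listed, median 0.40). HIS4, of histidine synthesis, had 206, 251 and 246 CPM at 75 fl, against 46.2, 59.6 and 67.0 CPM at 40 fl. HIS4 changed by 2.06 log2 (SE 0.31, edgeR adjusted p = 0.00199). LYS21, homocitrate synthase, had 402, 436 and 337 CPM at 75 fl, against 103, 166 and 173 CPM at 40 fl. LYS21 changed by 1.43 log2 (SE 0.32, edgeR adjusted p = 0.0138, and 0.0603 without 75 fl replicate A). GCN4, the activator of these genes, had 174, 308 and 154 CPM at 75 fl, against 394, 234 and 173 CPM at 40 fl, with overlapping groups (log2 fold change -0.35, SE 0.38, edgeR adjusted p = 0.581). The amino acid genes called higher numbered 1, 5, 5 and 2 without 75 fl replicate A, 40 fl replicate A, 40 fl replicate B and 40 fl replicate C in turn. Without 75 fl replicate B 6 amino acid genes were higher and 3 lower. DESeq2 called 12 higher and 1 lower, and the edgeR fit of all 24 mRNA libraries 10 and 1. Between 70 and 45 fl 11 were higher and 3 lower. In the sulfur and methionine list 1 of 8 counted genes was lower, CYS4, of cysteine synthesis (log2 fold change -1.32, SE 0.32, edgeR adjusted p = 0.0205, and 0.0995, 0.056 and 0.0578 without 75 fl replicate A, 75 fl replicate C and 40 fl replicate C in turn) (30 listed, median 0.33). Nucleotide and one-carbon genes were mixed, with 2 of 31 counted higher and 5 lower (38 listed, median -0.06, and -0.45 to 0.04 when 1 library was left out). The nucleotide and one-carbon genes called lower numbered 1, 2, 3 and 3 without 75 fl replicate A, 75 fl replicate C, 40 fl replicate B and 40 fl replicate C in turn. ADE3, which supplies one-carbon units, had 179, 279 and 203 CPM at 75 fl, against 47.1, 76.6 and 54.0 CPM at 40 fl. ADE3 changed by 1.97 log2 (SE 0.33, edgeR adjusted p = 0.00406). APT1, of purine salvage, had 30.1, 38.6 and 45.3 CPM at 75 fl, against 138, 153 and 169 CPM at 40 fl. APT1 changed by -2.01 log2 (SE 0.31, edgeR adjusted p = 0.00199). PRS3, URA2, URA7 and AAH1 were lower with it.

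The strongest falls were in a kinase and a transcription factor of stress responses. RCK1, a protein kinase gene linked to the response to oxidants, had 24.6, 23.9 and 36.1 CPM at 75 fl, against 638, 264 and 1508 CPM at 40 fl. RCK1 changed by -4.85 log2 (SE 0.58, edgeR adjusted p = 0.000513). The 40 fl libraries ranged widely in RCK1, yet the lowest of them was more than 7 times the highest 75 fl library. CIN5, a bZIP factor of the Yap family, had 24.6, 30.7 and 27.6 CPM at 75 fl, against 312, 119 and 378 CPM at 40 fl. CIN5 changed by -3.30 log2 (SE 0.41, edgeR adjusted p = 0.000556). Membrane genes for zinc were lower as well: ZRT1, the high-affinity zinc transporter, had 113, 104 and 42.2 CPM at 75 fl, against 674, 498 and 186 CPM at 40 fl (log2 fold change -2.39, SE 0.48, edgeR adjusted p = 0.00871), and IZH2 had 187, 214 and 229 CPM at 75 fl, against 1008, 1655 and 1552 CPM at 40 fl. IZH2 changed by -2.74 log2 (SE 0.34, edgeR adjusted p = 0.000596). IZH4 was the third lower gene among 20 counted of phosphate and zinc (25 listed, log2 fold change -1.98, SE 0.43, edgeR adjusted p = 0.0128, and 0.0504 and 0.0575 without 75 fl replicate A and 40 fl replicate C in turn). The phosphate and zinc genes called lower numbered 6 without 75 fl replicate B. GAP1, the general amino acid permease, had 66.3, 44.1 and 57.6 CPM at 75 fl, against 157, 289 and 396 CPM at 40 fl. GAP1 changed by -2.32 log2 (SE 0.38, edgeR adjusted p = 0.003). VMA11, a subunit of the vacuolar proton pump, had 15.7, 25.7 and 19.2 CPM at 75 fl, against 77.8, 102 and 59.6 CPM at 40 fl (log2 fold change -1.92, SE 0.35, edgeR adjusted p = 0.00609), while VMA1 of the same pump was higher (log2 fold change 1.18, SE 0.34, edgeR adjusted p = 0.039, and 0.195, 0.0506, 0.0977 and 0.155 without 75 fl replicate A, 75 fl replicate B, 40 fl replicate B and 40 fl replicate C in turn). In the vacuole list VMA1 was higher and VMA11 and ATG8 were lower, of 22 counted (23 listed, median -0.04). In the list of plasma membrane transport BAP3 was higher and GAP1 and ZRT1 were lower, of 32 counted (41 listed, median -0.23). Over all counted genes 6.73% were higher and 5.76% lower. BAP3 lost its call in 6 of the 6 fits that left out 1 library (edgeR adjusted p 0.0577 to 0.149) and ATG8 in 2 (edgeR adjusted p 0.0669 to 0.0673). FMP48, a putative kinase of mitochondria, YLR363W-A, YCR087W and the higher genes ILM1, WSC4 and NCW2 were also among the 12 largest changes of each direction, at -2.68, -2.75, -2.27, 3.11, 2.94 and 2.54.

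Of the regulators of Start, the commitment point of G1, 2 of 21 counted genes were higher (34 listed, median 0.22). Over all counted genes 6.73% were higher, and with the replicate block 0 of the 21 were. They were SWI6 and MBP1, the subunits of MBF. SWI6 had 301, 272 and 278 CPM at 75 fl, against 101, 183 and 149 CPM at 40 fl (log2 fold change 1.01, SE 0.31, edgeR adjusted p = 0.0487), and its call was lost without each library in turn, the edgeR adjusted p then running from 0.0558 to 0.168. MBP1 had 494, 293 and 330.0 CPM at 75 fl, against 102, 196 and 177 CPM at 40 fl. MBP1 changed by 1.27 log2 (SE 0.35, edgeR adjusted p = 0.0338, and 0.159, 0.0529, 0.0968, 0.0582 and 0.0914 without 75 fl replicate A, 75 fl replicate C, 40 fl replicate A, 40 fl replicate B and 40 fl replicate C in turn). CLN3, the G1 cyclin gene at the head of this path, had 18.5, 73.6 and 33.8 CPM at 75 fl, against 21.4, 46.8 and 46.5 CPM at 40 fl, with overlapping groups (log2 fold change 0.31, SE 0.51, edgeR adjusted p = 0.732). In the authors' deposited table WHI5, which restrains SBF, was at -0.16 at 75 fl and -2.28 at 40 fl, and SWI4, the DNA-binding subunit of SBF, at 0.27 and -1.62. Of 21 listed genes of haploid mating only STE12 was counted (log2 fold change -0.75, SE 0.33, edgeR adjusted p = 0.147), of 16 of meiosis none, and of 16 of quiescence PCK1 (log2 fold change -1.40, SE 0.50, edgeR adjusted p = 0.0808) and RIM15 (log2 fold change 0.18, SE 0.28, edgeR adjusted p = 0.714). None of the 3 passed, and PCK1 was called lower without 40 fl replicate A (edgeR adjusted p = 0.0156). MFA1, STE2, IME1, NDT80 and SNZ1 were among those not counted, as were HIS3, LEU2 and URA3, listed as deletion markers of the strain. LYS2, of the same list, was counted and did not pass, at -0.71. Of the 8 listed genes of the mitochondrial genome COX1, COX2 and COB were counted and none passed, with changes of -0.44, 0.39 and 0.02 (edgeR adjusted p = 0.502, 0.528 and 0.976). Between 70 and 45 fl, a contrast described below, all 3 were called higher, with a median of 1.38.

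The 2 ends of the size range do not show when a gene changed, or whether it peaked in between. At the 6 sizes from 45 to 70 fl the median of the 222 higher genes, relative to its level at 40 fl, was 0.35, 0.82, 0.97, 1.08, 1.18 and 1.18 log2 CPM, and 1.32 at 75 fl. That of the 190 lower genes was -0.32, -0.87, -1.09, -1.23, -1.41 and -1.48, and -1.41 at 75 fl. By 50 fl, 149 of the 222 and 134 of the 190 were closer to their 75 fl level than to their 40 fl level. The higher genes did not all peak at the end: the highest mean fell at 55 fl in 24 of them, at 60 fl in 32, at 65 fl in 45, at 70 fl in 26 and at 75 fl in 94. ASF1, SMC3 and PMT1 were highest at 55 fl, HTA2, TUB2, HSL1 and ILM1 at 60 fl, ALK1, MYO1 and HHF2 at 65 fl, and SIC1, SPO12, CTS1, HXT4 and WSC4 at 75 fl. Of the lower genes 150 were highest at 40 fl and 39 at 45 fl, and their lowest means fell at 65 fl in 40 genes, at 70 fl in 73 and at 75 fl in 61. The levels at 75 and 40 fl used here are those that chose the genes, so these positions are a description without a test.

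**Figure D4:**
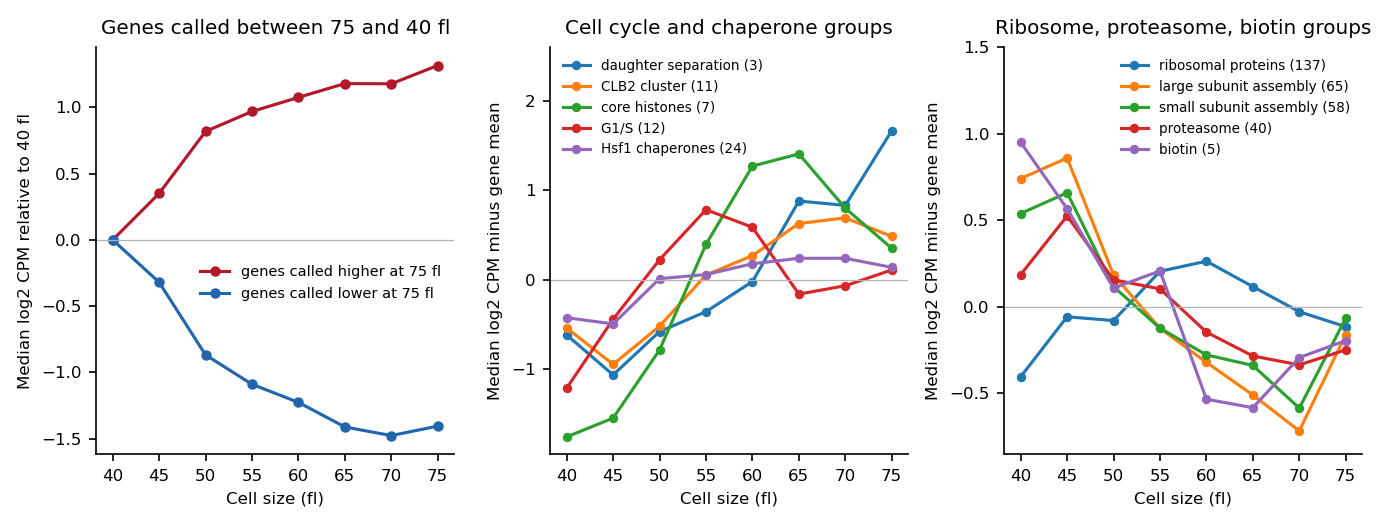
Median mRNA levels are drawn against cell size for the genes called between 75 and 40 fl (left, log2 CPM relative to 40 fl) and for gene groups (middle and right, log2 CPM minus each gene's mean over sizes, counted members in brackets). In the left panel most of the change in both directions lies between 40 and 50 fl. In the middle panel the G1/S group is highest at 55 fl, the histones at 65 fl and the daughter separation genes at 75 fl. The line of core histones is drawn from the list that also holds linker and variant genes. In the right panel ribosome assembly genes are higher at 75 fl than at 70 fl.

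The 70 fl and 45 fl libraries, 3 each, enter neither side of the comparison above and hold cells 5 fl short of either end. Between them 329 genes were higher at 70 fl (9.97% of 3301) and 369 lower (11.2%) by the same test, and with upper-quartile scaling 509 and 260. Of the 222 genes higher at 75 fl, 109 (49.1%) were also called higher at 70 than at 45 fl and none was called lower; they make up 33.1% of the genes higher at 70 fl. Of the 190 lower genes 132 (69.5%) were also called lower and 2 higher (CCC2 and YMR046C), and the 132 are 35.8% of the genes lower at 70 fl. The counts between 70 and 45 fl were 299 in place of 698 without 45 fl replicate C, 443 without 70 fl replicate A and 411 without 70 fl replicate C.

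Mitotic and histone genes were also called between 70 and 45 fl. ALK1 changed by 4.14 between 70 and 45 fl (SE 0.33, edgeR adjusted p = 8.28e-05), HTA2 by 3.64 (SE 0.39, edgeR adjusted p = 0.000472) and MYO1 by 2.97 (SE 0.30, edgeR adjusted p = 0.000472). Ribosome assembly genes gave more calls there, with 40 of 58 small subunit and 53 of 65 large subunit genes lower at 70 fl, and medians of -1.18 and -1.49. Cytosolic ribosomal protein genes gave fewer, with 2 of 137 higher and a median of 0.10. Among the G1/S genes 1 of 12 was higher at 70 fl. ASF1 changed by 0.33 (SE 0.46, edgeR adjusted p = 0.649), VMA11 by -0.06 (edgeR adjusted p = 0.938), ERG9 by 0.10 (edgeR adjusted p = 0.836) and RPS4A by 0.44 (edgeR adjusted p = 0.322). A test of the difference between the 2 contrasts, added after the data were seen, called none of the 3301 genes in edgeR, with 272 at an unadjusted p under 0.05 and a lowest adjusted p of 0.168. For ASF1 the difference was 2.04 (SE 0.62, edgeR adjusted p = 0.492) and for RCK1 -2.93 (SE 0.68, edgeR adjusted p = 0.363).

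Ribosome footprints, the RNA fragments that ribosomes shield from nuclease, were sequenced from pools of the same labelled size and replicate and report how much of an mRNA is being translated. The replicate A footprint libraries went against their labels. Over the counted genes, after centring each gene on its mean of the 24 footprint libraries, the library labelled 75 fl replicate A correlated at -0.20 and -0.32 with 75 fl replicates B and C and at 0.74 and 0.79 with 40 fl replicates B and C. The library labelled 40 fl replicate A correlated at 0.63 and 0.45 with 75 fl replicates B and C and at -0.31 and -0.28 with 40 fl replicates B and C. The pattern ran through the size series. In the replicate A libraries labelled 40 to 75 fl, mean centred histone footprints were 1.55, 1.57, 1.45, 2.12, 1.27, -0.51, -0.79 and -1.46 log2 CPM. In replicate B they were -1.22, -1.75, -1.44, 0.29, 0.54, 0.70, 1.47 and 0.80. The mRNA of replicate A did not show this, with mean histone mRNA at 0.81 at 75 fl and -1.32 at 40 fl. Both of the authors' deposited tables that hold single footprint libraries carry the same names for these columns. The labels were kept, and why these libraries go against them was not tested.

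With all 6 libraries as labelled, edgeR called none of 3274 genes in footprints between 75 and 40 fl, with 73 at an unadjusted p under 0.05 and a lowest adjusted p of 0.941. DESeq2 called 1, the mitochondrial AI1, and limma-voom none. That fit holds the replicate A libraries. Without them, a choice made after the data were seen that leaves 2 libraries a size, edgeR called 560 genes higher at 75 fl and 633 lower, together 36.2% of 3295. The footprint change then had the sign of the mRNA change in 203 of the 222 higher genes and 175 of the 190 lower genes, against 2212 of 3295 genes over all. It passed in that direction in 115 and 131 of them, against 962 of 3295 genes over all. It passed in the opposite direction in 4 and 0 of them, against 231 over all. The median footprint change was 0.98 in the higher and -1.64 in the lower genes without replicate A, and 0.28 and -0.55 with it.

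Single genes showed the same split. ALK1 footprints stood at 6.99, 125 and 77.0 CPM at 75 fl, against 87.2, 9.45 and 9.3 CPM at 40 fl, and HTA2 footprints at 41.9, 354 and 481 CPM at 75 fl, against 738, 36.8 and 46.7 CPM at 40 fl. In BIO2 they were 128, 13.1 and 22.7 CPM at 75 fl, against 10.8, 93.5 and 83.4 CPM at 40 fl. In each of the 3 genes the library labelled 75 fl replicate A lay nearer to 40 fl replicates B and C than to 75 fl replicates B and C, and the library labelled 40 fl replicate A nearer to the 75 fl pair. Without replicate A the footprint log2 fold change was 3.42 in ALK1 (SE 0.374, edgeR adjusted p = 0.000281), 3.30 in HTA2 (SE 0.285, edgeR adjusted p = 0.000193) and -2.26 in BIO2 (SE 0.343, edgeR adjusted p = 0.00121). Without replicate A all 7 counted histone genes were called higher in footprints, with a median of 1.99. Of the large subunit assembly genes all 65 were called lower (median -2.29), and of the small subunit assembly genes 55 of 58 (median -1.86). Cytosolic ribosomal protein genes were called higher in 59 of 137 cases and lower in none (median 0.63). With replicate A the 4 medians were 0.10, -0.86, -0.66 and 0.08.

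Footprints relative to mRNA were tested in 1 model, as an assay by size term. With all 12 libraries edgeR called none of 3301 genes (284 at an unadjusted p under 0.05, lowest adjusted p 0.525), DESeq2 16 and limma-voom none. Without the footprint libraries of replicate A, edgeR called 30 higher and 78 lower, DESeq2 211 and 235, and limma-voom 26 and 78.

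**Figure D5:**
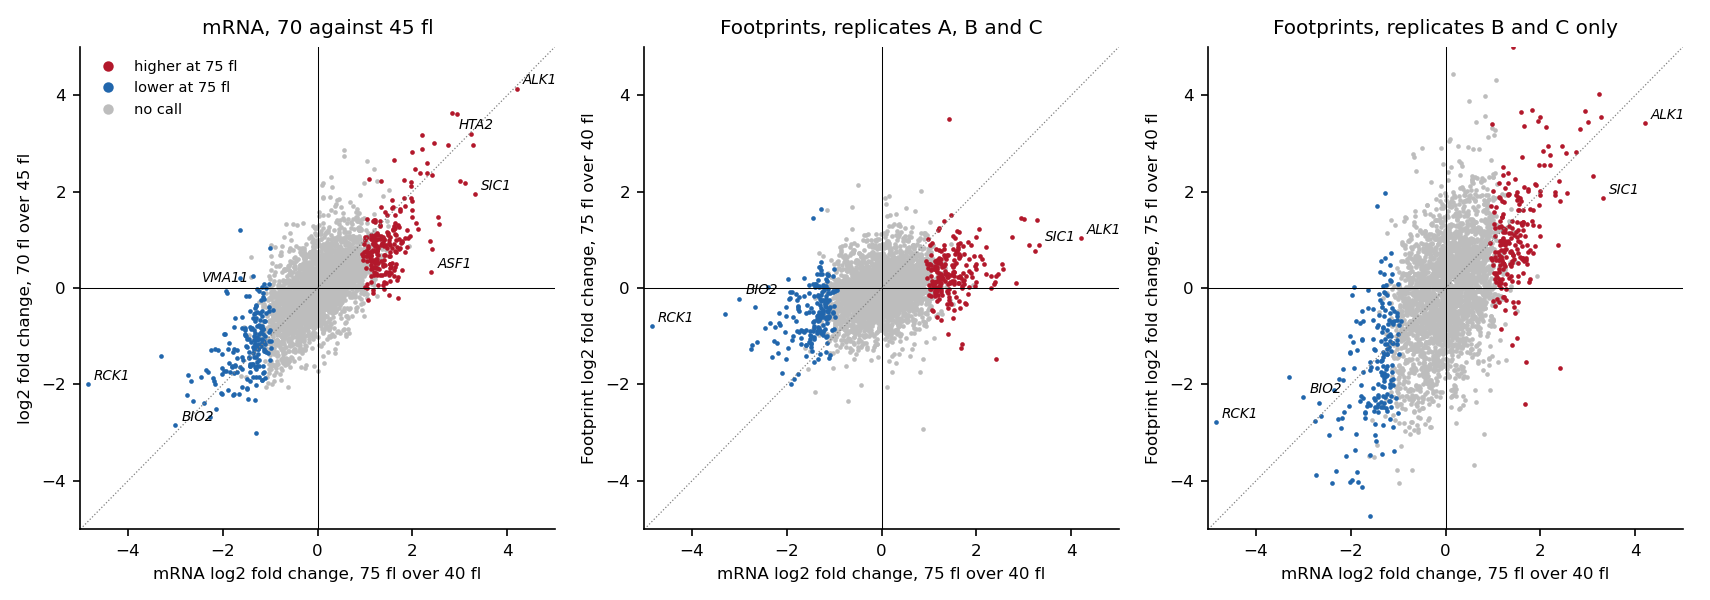
The mRNA log2 fold change of 75 fl over 40 fl (horizontal) is set against that of 70 fl over 45 fl in other mRNA libraries (left), and against the footprint log2 fold change of 75 fl over 40 fl with all 3 replicates as labelled (middle) and with replicates B and C only (right, where 4 genes lie beyond the axis). Colours give the mRNA call between 75 and 40 fl and the dotted line marks equal changes; in the middle panel the coloured points lie nearer to the horizontal axis than in the right panel, where ALK1 stands at 4.20 in mRNA and 3.42 in footprints.

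Genes called in the 2 directions differed in length. The median span was 1711.5 bases for the 222 higher genes and 1026 bases for 185 of the 190 lower genes with a position, against 1329 bases for 3260 counted genes. Over these genes the Spearman correlation of length and log2 fold change was 0.13, given as a description. Whether length, or a trait of the libraries that goes with it, had a part in any of the changes was not tested.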

How the data were processed

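Poly(A) mRNA and ribosome footprints were sequenced from BY4743 cells collected at 8 sizes, in 3 pools per size. The authors deposited whole-number counts per ORF for 24 mRNA and 24 footprint libraries, and log2 levels per library and per size with replicates pooled. Per the submitters' processing notes the tools were RSEM 1.2.20, TopHat2 2.1.0, Bowtie 1.1.2, SAMtools 1.3-1, cutadapt 1.8 and bcl2fastq 2.17.1.14, with build R64. The sources used here do not say how shared reads were assigned or whether strand was used. The count tables name size and replicate but not assay, which was settled by correlation with the labelled log2 levels the authors deposited. Both deposited tables give the replicate A footprint columns the same names, and those libraries go against their size labels.

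Counts were tested with edgeR 4.0.16 (quasi-likelihood test, TMM scaling, expression filter, Benjamini-Hochberg over all genes tested) on the 3 libraries of 75 fl and 3 of 40 fl, and likewise for 70 against 45 fl and for footprints. Footprints relative to mRNA were tested as an interaction. DESeq2 1.42.0, limma-voom (limma 3.58.1), other scalings, a replicate block and leaving out libraries were alternatives. The test was also run on simulated counts, and nothing here rests on the outcome. CPM are TMM-scaled. Symbols came from RefSeq for 3260 of 3301 ORFs. Named genes are the 12 largest changes in each direction among called genes without overlap, the 3 genes of smallest p per list, and a fixed panel; members of short counts and genes outside this rule were named after their values were seen. The comparison, panel and gene lists were chosen with earlier results of these data known. P-values measure the spread between pools. A called gene of the G1/S list is not reported here by name.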

Additional observations from a re-analysis of the deposited data

How the results depend on the processing

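Between 75 and 40 fl, the count of 412 genes became 782 with DESeq2 (383 higher, 399 lower) and 783 when all 24 mRNA libraries shared 1 estimate of the spread (382 and 401). Leaving out 1 library gave 123 to 451 genes, 62 to 234 higher and 49 to 217 lower. Between 70 and 45 fl DESeq2 called 1127 (527 higher, 600 lower), upper-quartile scaling 509 higher, and leaving out 1 library gave 299 to 691 genes, 120 to 287 higher and 179 to 411 lower. The difference between the 2 contrasts gave 0 to 3 calls when 1 library was left out, the 3 without 40 fl replicate A (CCC2, GID7 and YLR297W). Footprints gave 0 calls in edgeR and 1 with DESeq2, and without the replicate A footprint libraries 1193 in edgeR, 1103 with DESeq2 and 1299 with limma-voom. Footprints relative to mRNA gave 0 and 16, and without those libraries 108, 446 and 104; leaving out any single library gave 0 for both. Of 98 called genes named by rule, 58 kept their call in every fit that left out 1 mRNA library, 88 kept it in all the other settings tried, and none changed direction. Calls were lost with the replicate block for PUP3, ERG20, PYC1, VMA1, BAP3, MBP1, SWI6 and FAS1 (adjusted p 0.0531 to 0.0676), with total counts for PYC1, BAP3 and SWI6 (0.0515 to 0.0603), with median-of-ratios and upper-quartile scaling for SWI6 (0.0600 and 0.0598), with DESeq2 for MIG2 (0.0552) and with all 24 libraries for IZH4 (0.0916). The cause was not tested. The labels do not say whether pools with the same letter share a day or a culture: deviations of same-lettered 75 and 40 fl libraries correlated at -0.18, -0.12 and 0.42, and 1 of 3 libraries of 75 fl was closest to its own letter. The replicate block called 307 genes (160 higher, 147 lower) between 75 and 40 fl. The depth of 40 fl replicate B limits which genes are counted.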

Other observations

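By chromosome, the median log2 fold change of 75 fl over 40 fl was 0.39 over the 45 counted genes of chromosome I, of which 4 were higher and 3 lower. On the other nuclear chromosomes the median lay between -0.02 and 0.16. The value rests on few genes and has no test.

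CCC2, a copper transporter of the secretory path, and YMR046C were the 2 genes called lower at 75 than at 40 fl and higher at 70 than at 45 fl. They were singled out after their values were seen.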
